A study of Mus musculus with 8 samples.

Results

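The platelet-derived growth factor (PDGF) family was followed through RNA-seq libraries of mouse stromal cells. Its members were taken by name from the deposited gene table: the ligand genes Pdgfa, Pdgfb, Pdgfc and Pdgfd, the receptor genes Pdgfra and Pdgfrb, and the receptor-like gene Pdgfrl (there in lower case: pdgfa, pdgfb, pdgfc, pdgfd, pdgfra, pdgfrb and pdgfrl). All 7 were found among 22558 genes, and all 7 passed the filter on low counts that left 14847 genes for testing. PDGFs are secreted dimers that bind receptor tyrosine kinases on mesenchymal cells. The alpha receptor binds dimers of the A, B and C chains and the beta receptor those of the B and D chains, and the C and D chains become active only after a protease removes their CUB domain. In connective tissue the alpha receptor is a usual mark of fibroblasts and adipocyte progenitors, the beta receptor is also strong on pericytes and smooth muscle, and endothelial cells are a known source of the B chain.

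RNA came from 4 cell populations with 2 libraries each. In 3 of them the cells carried surface fibroblast activation protein (FAP), a serine protease of stromal cells, and came by flow sorting from dissociated visceral adipose tissue, from skeletal muscle and from pancreas, where the labels call them stellate cells. They were set against mouse embryonic fibroblasts (MEFs) that had been sorted as FAP-negative, cultured for 3 passages and sorted again. No treatment or engineered allele is named for any group, and strain, sex and age are not given in the sources used here. Each group was isolated in duplicate experiments, and the SDs below are the spread between those 2 isolations. The standard errors (SE) of fitted differences come from a fit over all groups together. They need not follow the spread of the pair of libraries in a given group. A difference between FAP+ cells and MEFs is also one between freshly isolated and cultured cells, and between tissues of origin and embryos, and these cannot be told apart. In such bulk samples fewer cells of a type and less RNA per cell cannot be told apart either.

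Estimated fragments per library numbered 15516319 to 27759399. Levels are given as normalised CPM, estimated fragments of a gene scaled to a common library size with TMM factors, and differences as fitted log2 fold changes ± SE with the adjusted p of edgeR's quasi-likelihood test (Benjamini-Hochberg over 14847 genes). A gene is called where that p is below 0.05. The sort marker Fap had 28.0 and 34.4 CPM in adipose, 88.8 and 107 CPM in muscle and 55.4 and 65.6 CPM in pancreas FAP+ cells, against 2.37 and 0.516 CPM in MEFs. Adipose library 1 stood apart: its TMM factor was 0.516, against 0.889 to 1.31 in the others, and its estimated fragments per whole read, recovered from the RPKM table, had a median of 0.827 over genes with at least 10 reads, against 1.07 to 1.20. The adipose results of the members, and the list counts and named list genes further on, are therefore also given without it. The 7 fibroblast markers summed to 21190 to 48910 CPM in FAP+ libraries, against 3569 to 4741 CPM in MEFs, and none was at 0 in any group. Dcn was the largest part in every FAP+ library, at 11080 to 21790 CPM, against 42.6 and 22.7 CPM in MEFs. Col1a1 differed far less, at 1289 and 1180 CPM in pancreas, against 1139 and 975 CPM in MEFs. Of the stellate cell markers, Lrat, the enzyme that stores vitamin A as ester, had 0.104 and 0.312 CPM in the pancreas libraries, and Gfap 0.104 and 0.468 CPM, so these 2 defining markers were near 0. Des, another of them, had 41.6 and 34.6 CPM in pancreas, against 229 and 143 CPM in adipose.

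Against MEFs, FAP+ cells of all 3 tissues held more RNA of both signalling receptors and less of the ligand Pdgfc. Pdgfra was 7.11-fold higher in adipose, 9.03-fold in muscle and 7.55-fold in pancreas, and Pdgfrb was 3.30-, 2.42- and 2.99-fold higher. Pdgfc fell by 3.58 on the log2 scale in adipose, by 2.05 in muscle and by 3.20 in pancreas. Pdgfrl was called higher in adipose and muscle, and Pdgfb was called higher in adipose but lower in pancreas. Pdgfa and Pdgfd were called in none of the comparisons by this test. The calls against MEFs came to 4 higher and 1 lower in adipose, 3 higher and 1 lower in muscle, and 2 higher and 2 lower in pancreas. Over all genes 26.9% were called higher and 23.2% lower in adipose (50.1% in either direction), 23.7% and 20.0% in muscle (43.8%) and 23.1% and 19.4% in pancreas (42.5%), and the counts of 5, 4 and 4 among 7 members are to be read against those shares. The median log2 fold change of the members was 1.72 in adipose, 0.78 in muscle and -0.21 in pancreas, beside 0.05, 0.03 and 0.02 over all genes. The 3 comparisons share the same 2 MEF libraries.

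**Figure D1:**
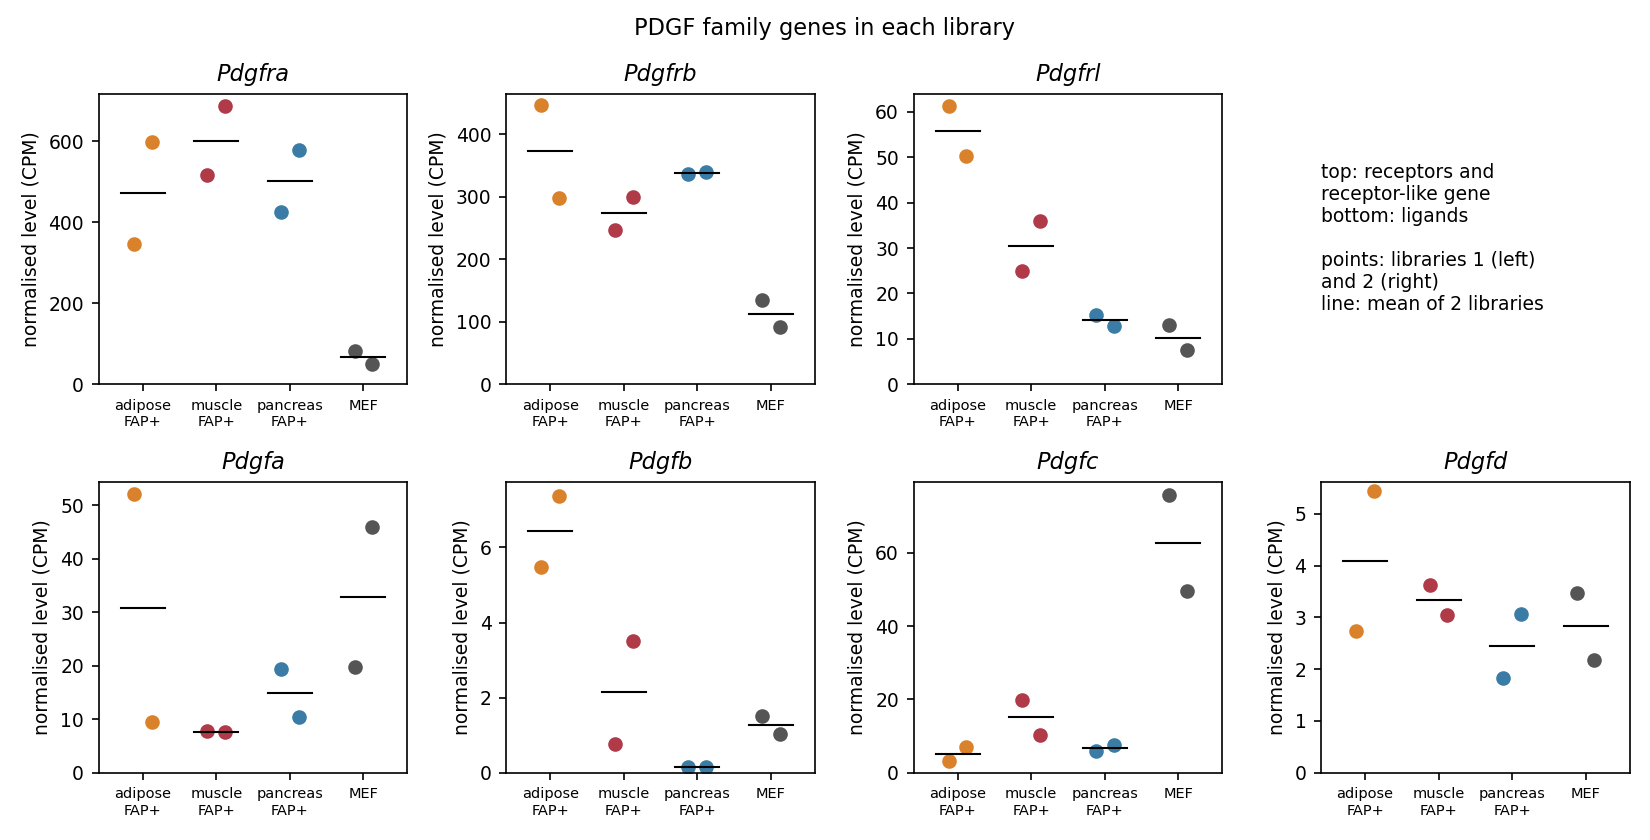
Normalised level (CPM, linear axes from 0) of the 7 genes in each library of adipose, muscle and pancreas FAP+ cells and of MEFs; points are libraries and lines the means of 2. Pdgfra and Pdgfrb sit higher in all 6 FAP+ libraries than in both MEF libraries, Pdgfc sits lower in all 6, and Pdgfb is lowest in pancreas.

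Among the ligands, only Pdgfc was called against MEFs in the same direction in every tissue. It encodes the C chain, which signals mainly through the alpha receptor. Its level was 3.20 and 7.14 CPM in adipose, 19.9 and 10.4 CPM in muscle and 5.94 and 7.69 CPM in pancreas, against 75.7 and 49.6 CPM in MEFs. No FAP+ library reached the level of the lower MEF library. The adjusted p was 0.00109 in adipose (SE 0.51), 0.0103 in muscle (SE 0.47) and 0.0019 in pancreas (SE 0.50). Over all genes, 13.5% were called lower in all 3 tissues. The muscle call did not hold without muscle library 2 (log2 -1.66, adjusted p = 0.0903) or without MEF library 1 (-1.74, 0.0706), while the log2 in adipose was -3.13 without adipose library 1 (adjusted p = 0.00131). Among FAP+ cells Pdgfc was at 15.2 ± 6.70 CPM in muscle and 5.17 ± 2.78 CPM in adipose (SD, n = 2), and the difference of 1.53 ± 0.47 on the log2 scale was not called (adjusted p = 0.108).

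Pdgfb, the B chain that binds both receptors, had the widest range between tissues. It had 5.49 and 7.38 CPM in adipose, 0.765 and 3.52 CPM in muscle and 0.156 and 0.156 CPM in pancreas, against 1.50 and 1.03 CPM in MEFs. By CPM both adipose libraries lay above, and both pancreas libraries below, all other libraries. By FPKM, described below, adipose library 1 (1.088) was under muscle library 2 (1.395). By RPKM it had 0.607, under muscle library 2 (1.134) and close to MEF library 1 (0.602). The pancreas values stand for 3 fragments in each library, which is at the floor of 3 used here, so the size of any fold against pancreas is uncertain. Adipose cells exceeded MEFs 5.08-fold in Pdgfb (log2 2.34 ± 0.65, adjusted p = 0.0198), and without adipose library 1 the log2 was 2.55 (adjusted p = 0.0201). Leaving out MEF library 1 or MEF library 2 ended that call, and the limma fits on FPKM did not make it (adjusted p up to 0.283). It was called in 13 of 18 alternatives. In muscle the log2 of 0.78 ± 0.64 was not called (adjusted p = 0.353), and its sign turned without muscle library 2 (-0.73). Pancreas against MEFs gave a log2 of -2.98 ± 0.82 (adjusted p = 0.0215), and 6 against 84 fragments gave a ratio of 0.123 with an exact 95% counting interval of 0.0440 to 0.280. That call was lost without either pancreas library, without MEF library 1 and in the limma fits on FPKM (adjusted p up to 0.209). It held in 12 of 18 alternatives.

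Between tissues, pancreas FAP+ cells held less Pdgfb than adipose FAP+ cells, with a log2 of -5.32 ± 0.83 (adjusted p = 0.0104). The fragments numbered 6 in pancreas and 254 in adipose, and the ratio was 0.0232 (exact 95% counting interval 0.00844 to 0.0512), which covers counting error only. The log2 was -5.53 without adipose library 1. The difference was not called without either pancreas library or in the limma fits on FPKM, and was called in 13 of 18 alternatives. Against muscle the log2 was -3.76 ± 0.82 and just missed the threshold (adjusted p = 0.0515), with a fragment ratio of 0.0648 (0.0232 to 0.146). In this comparison 6 of 18 alternatives called it, among them DESeq2 (adjusted p = 0.00128) and the fit without muscle library 1 (0.04).

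Endothelial cells are known to make the B chain, and their markers are given here beside Pdgfb. Over the FAP+ groups all but Tek ran in the order of Pdgfb, from adipose through muscle to pancreas. The 7 markers summed to 452 to 626 CPM in adipose, 99.8 to 159 CPM in muscle and 62.0 to 71.1 CPM in pancreas, against 1.64 to 3.00 CPM in MEFs, and none was at 0 in both libraries of a group. Most of the sum in muscle and pancreas was Tek, at 51.6 to 102 CPM in every FAP+ library. Cldn5, a tight junction gene of endothelium, had 194 and 332 CPM in adipose, 2.81 and 12.5 CPM in muscle and 0.886 and 0.676 CPM in pancreas, against 0 and 0.0607 CPM in MEFs. Cdh5, the endothelial cadherin, had 47.3 and 31.2 CPM in adipose, 1.47 and 5.96 CPM in muscle and 0.156 and 0.0520 CPM in pancreas, against 0.120 and 0 CPM in MEFs. In the muscle pair, library 2 held more of Pdgfb, Cldn5 and Cdh5 than library 1. In the adipose pair, library 2 held more of Pdgfb, Cldn5, Pecam1 and Tek but less of Cdh5, Emcn, Vwf and Tie1. In MEFs, where Cldn5 and Cdh5 were near 0, Pdgfb was higher than in pancreas. The 5 platelet and megakaryocyte markers, another known source of B chain, summed to 104 to 426 CPM in adipose, 124 to 131 CPM in muscle and 98.1 to 136 CPM in pancreas, against 34.6 to 54.1 CPM in MEFs, with Ppbp and Gp9 at 0 in pancreas and Gp9 at 0 in MEFs. Most of that sum in every FAP+ library was Gp1bb, at 392 and 91.2 CPM in adipose and 88.2 to 121 CPM in muscle and pancreas, against 41.6 and 22.9 CPM in MEFs. Pf4 was at most 3.74 CPM in FAP+ cells, and Ppbp was highest in MEFs, at 6.06 and 5.89 CPM. The part of these cells in the Pdgfb differences was not tested.

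**Figure D2:**
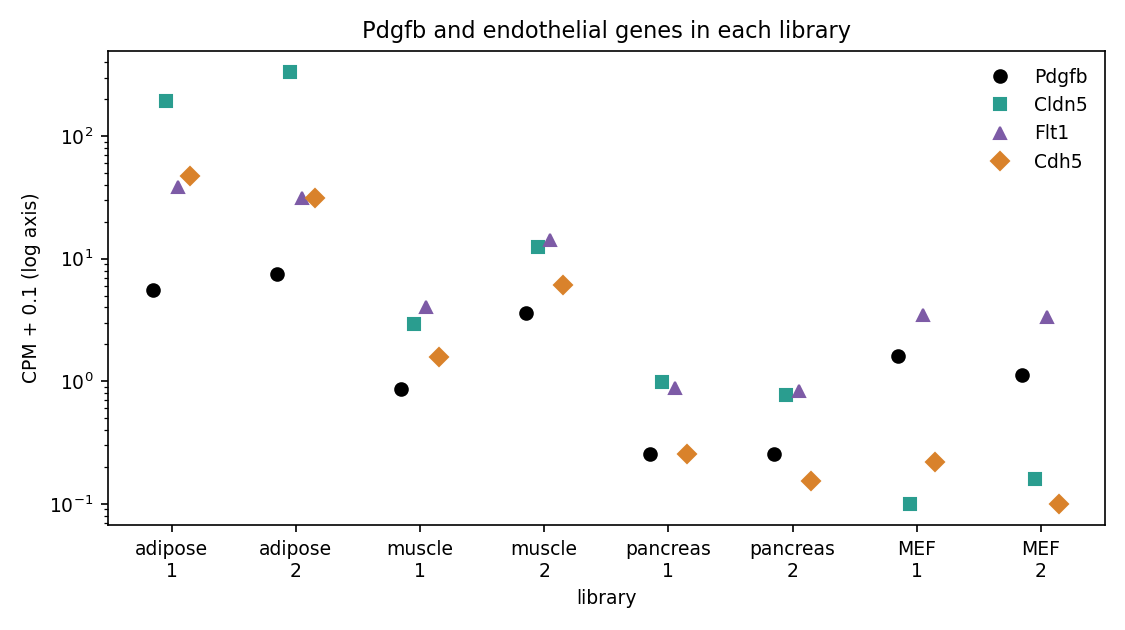
CPM + 0.1 on a log axis of Pdgfb and of the endothelial genes Cldn5, Flt1 and Cdh5 in each of the 8 libraries. All 4 genes are highest in the 2 adipose libraries, and in the pancreas libraries Pdgfb is at 0.156 CPM. Flt1 is not in the list of endothelial markers and is among the genes nearest to Pdgfb in these libraries (0.457). The list member Tek, which does not follow Pdgfb, is not drawn. Tek had 51.6 and 83.6 CPM in adipose, 86.3 and 102 CPM in muscle and 58.0 and 68.8 CPM in pancreas.

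Pdgfa encodes the A chain, which acts through the alpha receptor alone. It had 52.1 and 9.41 CPM in adipose, 7.85 and 7.55 CPM in muscle and 19.3 and 10.4 CPM in pancreas, against 19.7 and 46.0 CPM in MEFs. The adipose libraries differed 5.54-fold from each other and spanned the MEF values, the pancreas values lay just below them, and muscle was lowest. The log2 difference from MEFs was -0.10 ± 0.74 in adipose (adjusted p = 0.92), -2.09 ± 0.77 in muscle (0.0595) and -1.14 ± 0.75 in pancreas (0.248). The muscle difference was called in 8 of 18 alternatives, among them DESeq2 (adjusted p = 0.0128) and the test on recovered reads (0.0115). Once adipose library 1 was left out, Pdgfa was called lower in adipose (log2 -1.81, adjusted p = 0.0304), muscle (-2.11, 0.00463) and pancreas (-1.16, 0.0481). In that library the deposited table gave 684 estimated fragments of Pdgfa for 223 recovered reads, a ratio of 3.07, while the other 7 libraries had 1.56 to 1.95.

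Pdgfd, whose D chain acts through the beta receptor, was low in all groups. It had 2.74 and 5.43 CPM in adipose, 3.64 and 3.05 CPM in muscle and 1.82 and 3.07 CPM in pancreas, against 3.48 and 2.19 CPM in MEFs. The ranges of adipose, muscle and pancreas each overlapped that of MEFs. Its log2 difference from MEFs was 0.54 ± 0.47 in adipose, 0.24 ± 0.48 in muscle and -0.21 ± 0.48 in pancreas, with adjusted p of 0.36, 0.712 and 0.747. None of the 18 alternatives called it in any comparison, which does not show that the levels were equal.

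The alpha receptor gene Pdgfra was among the genes with the most fragments in the FAP+ cells. CPM is not scaled for transcript length, so this rank is one of fragments and not of transcript abundance. Its CPM exceeded that of 97.1% of tested genes in adipose, 98.3% in muscle and 98.3% in pancreas, against 86.1% in MEFs. It had 347 and 598 CPM in adipose, 515 and 686 CPM in muscle and 425 and 578 CPM in pancreas, against 82.4 and 50.5 CPM in MEFs. Every FAP+ library was above both MEF libraries, and the 3 tissues overlapped one another. The log2 fold change over MEFs was 2.83 ± 0.43 in adipose (adjusted p = 0.00144), 3.18 ± 0.43 in muscle (0.00102) and 2.92 ± 0.43 in pancreas (0.00147). Over all genes, 16.5% were called higher in all 3 tissues. In muscle and pancreas it was called under each of the 18 alternatives, and without adipose library 1 the adipose value was 3.18 (adjusted p = 0.000243). On the FPKM scale, described below, the adipose difference was 1.59 in log2(FPKM + 1) and was not called (limma, adjusted p = 0.0733). On that scale genes with at least 1 FPKM in 2 libraries had a median log2 difference of -0.93 in adipose against MEFs. No pair of tissues differed in Pdgfra beyond the spread between libraries.

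The beta receptor gene Pdgfrb had a smaller difference than Pdgfra. It had 448 and 298 CPM in adipose, 248 and 300 CPM in muscle and 336 and 340 CPM in pancreas, against 134 and 91.8 CPM in MEFs. By CPM, again all 6 FAP+ libraries exceeded both MEF libraries. By RPKM, described below, adipose library 1 had 7.548, under the 9.585 of MEF library 1. In that adipose library Pdgfrb had 3.665 estimated fragments per recovered read, against 2.22 to 2.68 in the others. The log2 fold change over MEFs was 1.72 ± 0.33 in adipose (adjusted p = 0.00445), 1.27 ± 0.33 in muscle (0.0165) and 1.58 ± 0.33 in pancreas (0.00731). Without adipose library 1 the adipose value was 1.40 (adjusted p = 0.00394). In muscle the call was lost without either muscle library (adjusted p of 0.0583 and 0.107) and without MEF library 2 (0.101), and the last also ended the pancreas call (0.0562). On log2(FPKM + 1) the differences were 0.56 in adipose and 0.63 in muscle, neither called (limma, adjusted p of 0.187 and 0.148), and 1.08 in pancreas (0.0354).

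Mural cells, pericytes and vascular smooth muscle, are known for high Pdgfrb, and their 8 markers summed to 315 to 382 CPM in adipose, 125 to 178 CPM in muscle and 144 to 167 CPM in pancreas, against 154 to 176 CPM in MEFs. None was at 0 in any group. The MEF sum was mostly Cspg4 and Mcam, the last at 6.79 and 13.1 CPM in adipose and 1.34 to 2.75 CPM in muscle and pancreas, against 37.7 and 30.3 CPM in MEFs. Of the 8 markers, Notch3, Abcc9, Kcnj8, Myh11 and Des were higher in all 6 FAP+ libraries than in both MEF libraries. The share of all genes with such a separation was not counted, and 16.5% were called higher in all 3 tissues. Notch3, a receptor of mural cells, had 8.56 to 13.9 CPM in adipose and 3.99 to 9.17 CPM in muscle and pancreas, against 1.32 and 1.25 CPM in MEFs. Abcc9, a potassium channel subunit of pericytes, had 28.4 and 39.7 CPM in adipose, 12.8 and 16.7 CPM in muscle and 25.4 and 24.1 CPM in pancreas, against 3.03 and 1.00 CPM in MEFs. The other markers went different ways: Cspg4 had 11.3 and 7.91 CPM in adipose, 45.5 and 65.1 CPM in muscle and 63.3 and 62.6 CPM in pancreas, against 80.3 and 110 CPM in MEFs, whereas Rgs5 had 7.17 and 24.1 CPM in adipose, 2.17 and 10.6 CPM in muscle and 0.678 and 0.468 CPM in pancreas, against 1.38 and 2.06 CPM in MEFs. The part of mural cells in the Pdgfrb level was not tested.

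Pdgfrl encodes a secreted protein that resembles the outer part of a PDGF receptor and lacks a kinase domain. It had 61.4 and 50.4 CPM in adipose, 25.0 and 35.9 CPM in muscle and 15.2 and 12.9 CPM in pancreas, against 13.0 and 7.47 CPM in MEFs. Adipose was highest and muscle next, with no overlap, and the lower pancreas library lay just under the higher MEF library. Over MEFs the gene was 5.45-fold higher in adipose (log2 2.45 ± 0.35, adjusted p = 0.00117) and 2.98-fold higher in muscle (1.57 ± 0.34, 0.00825), while 0.46 ± 0.34 in pancreas was not called (0.303). Without adipose library 1 the adipose value was 2.31 (adjusted p = 0.00113). The muscle call was lost without muscle library 2 (adjusted p = 0.0716) or MEF library 2 (0.0514). Pancreas cells held 3.97-fold less than adipose cells (log2 -1.99 ± 0.35, adjusted p = 0.0149). That difference was called in 12 of 18 alternatives. It was -1.85 without adipose library 1 (adjusted p = 0.0143), and was not called without pancreas library 1 (0.121) or 2 (0.144), when only these 2 groups were fitted (0.0547) or in the 3 limma fits on FPKM (0.087 to 0.126). The mesothelial markers summed to 67.6 to 94.7 CPM in adipose, 0.815 to 1.15 CPM in muscle and 21.9 to 31.7 CPM in pancreas, against 10.6 to 11.2 CPM in MEFs. The adipose sum was almost all Wt1, at 64.3 and 92.6 CPM in adipose, 0.0638 and 0.0858 CPM in muscle and 19.2 and 14.1 CPM in pancreas, against 0.480 and 0.213 CPM in MEFs. The other markers were not highest in adipose: Msln had 1.30 and 0.690 CPM there, against 10.1 and 9.05 CPM in MEFs, and Upk3b and Lrrn4 were highest in pancreas. The part of mesothelial cells in the Pdgfrl level was not tested.

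Between tissues the family therefore gave few calls. Of the 7 members, 2 were called lower and 0 higher in pancreas than in adipose, where 5.73% of all genes were called lower and 9.05% in either direction. In muscle against adipose 0 were called by edgeR, beside 6.12% of all genes, and 2 by DESeq2, which called 2016 of 14847 genes. In pancreas against muscle 0 were called by edgeR, beside 3.67% of all genes, and 1 by DESeq2, which called 1055 of 14847 genes. Ordered by mean CPM, Pdgfra ran from muscle through pancreas and adipose to MEFs, and Pdgfrb from adipose through pancreas and muscle to MEFs. For both, the only neighbours in the order that differed were MEFs and the tissue next to them. For Pdgfc the order was MEFs, muscle, pancreas and adipose, and only MEFs and muscle differed as neighbours. Pdgfb ran adipose, muscle, MEFs and pancreas, with only the last pair called, and no neighbours differed in Pdgfa, Pdgfd or Pdgfrl.

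The upstream sequence of 2 members called in one direction against MEFs in every tissue is shown to let the reader see what stands before those genes, with Pdgfa, not called, for contrast. The 250 bases before the annotated start come from RefSeq on GRCm38.p6, while the submitters' processing notes name mm9, and no motif position was measured in these libraries. Pdgfra lies at chr5:75152001-75152250 on the plus strand, Pdgfc at chr3:81036166-81036415 on the plus strand, and 1 of the 2 annotated starts of Pdgfa at chr5:138994945-138995194 on the minus strand. Capitals mark a GC box.
Pdgfra: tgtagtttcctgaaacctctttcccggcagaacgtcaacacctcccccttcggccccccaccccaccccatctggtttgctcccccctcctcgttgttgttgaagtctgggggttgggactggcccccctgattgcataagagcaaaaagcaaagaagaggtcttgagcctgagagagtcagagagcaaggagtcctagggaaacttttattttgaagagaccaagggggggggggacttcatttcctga
Pdgfc: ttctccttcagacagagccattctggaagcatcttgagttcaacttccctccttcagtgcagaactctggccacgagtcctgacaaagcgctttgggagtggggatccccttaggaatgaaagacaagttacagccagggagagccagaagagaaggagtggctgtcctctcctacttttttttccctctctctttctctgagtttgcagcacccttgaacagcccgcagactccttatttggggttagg
Pdgfa: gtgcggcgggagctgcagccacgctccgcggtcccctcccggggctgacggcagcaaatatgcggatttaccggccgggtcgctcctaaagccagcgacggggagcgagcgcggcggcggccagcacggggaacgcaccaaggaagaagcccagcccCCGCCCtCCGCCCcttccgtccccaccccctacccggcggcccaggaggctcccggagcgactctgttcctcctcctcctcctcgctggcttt
Each window was searched on both strands for the GC box GGGCGG, the TATA box TATAAA and the CCAAT box CCAAT. The Pdgfra and Pdgfc windows held none of these letters, and the Pdgfa window held 2 GC boxes, with no match overlapping another. Of 32851 mouse promoter windows of the same length, 32.7% held a GC box, 12.4% a TATA box and 33.8% a CCAAT box. The GC content was 54.4% for Pdgfra and 50.8% for Pdgfc, close to the median of 52.4%, with 4 and 3 CpG pairs. Pdgfa had 72.4% GC and 28 CpG pairs, against a median of 6 over all windows. Of the other members, Pdgfd has an annotated window with 1 TATA box, and Pdgfb, Pdgfrb and Pdgfrl were not matched.

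Levels of different genes can be compared only per length, and for this the authors' FPKM values (fragments scaled for transcript length and library size, after a bias adjustment) were used. In all 4 muscle and pancreas libraries Pdgfra ranked first and Pdgfrb second among the 7 members. In MEFs the ligands led instead, with Pdgfc at 39.4 and 24.0 FPKM and Pdgfa at 35.6 and 76.9 FPKM, while Pdgfra had 11.5 and 6.54 FPKM. Adipose library 2 had Pdgfra first at 50.3 FPKM, but adipose library 1 had Pdgfa first at 30.1 FPKM and Pdgfrb, Pdgfrl and Pdgfra after it, the last at 15.5 FPKM. Pdgfb was the lowest member in the 4 muscle and pancreas libraries and in both MEF libraries.

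The share of Pdgfra in the summed FPKM of both receptors was 39.0% and 62.4% in adipose, 63.2% and 65.4% in muscle and 51.1% and 58.4% in pancreas, against 33.6% and 31.2% in MEFs. All 6 FAP+ libraries were above both MEF libraries. By the authors' RPKM (reads scaled for length and library size), the share was 73.0% and 74.7% in adipose, 70.2% and 71.4% in muscle and 64.3% and 65.2% in pancreas, against 42.8% and 41.3% in MEFs. Thus in adipose library 1 the beta receptor was the higher one by FPKM and the alpha receptor by RPKM. The ratio of summed receptor to summed ligand FPKM was 1.22 and 4.35 in adipose, 3.96 and 6.02 in muscle and 2.91 and 5.30 in pancreas, against 0.430 and 0.202 in MEFs. By RPKM it was 1.70 and 3.12 in adipose, 2.44 and 4.06 in muscle and 2.46 and 3.72 in pancreas, against 0.228 and 0.131 in MEFs. On both scales receptor RNA exceeded ligand RNA in every FAP+ library and fell short of it in both MEF libraries. These ratios were not tested.

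**Figure D3:**
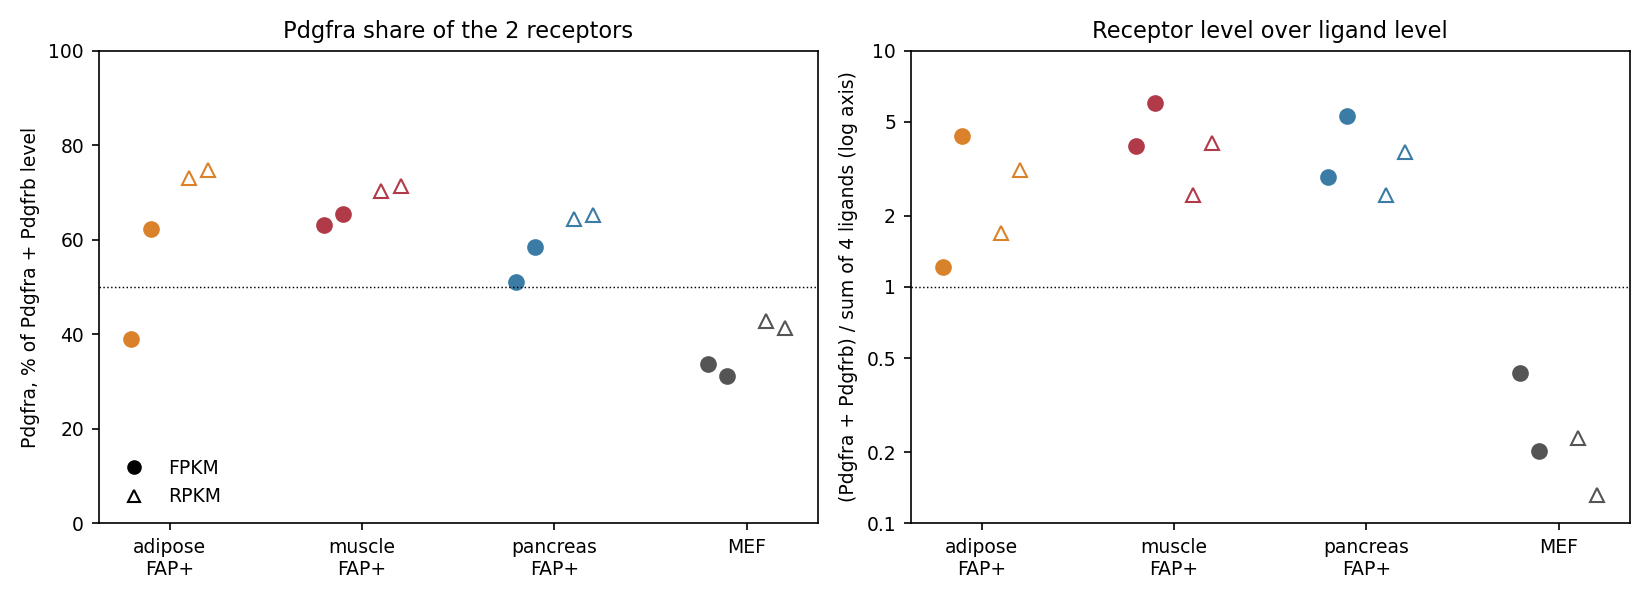
Left, Pdgfra as a percentage of summed Pdgfra and Pdgfrb; right, summed receptors over the summed 4 ligands on a log axis, in each library by FPKM (filled circles) and RPKM (open triangles). The ratio on the right is above 1 in all 6 FAP+ libraries and below 1 in both MEF libraries on both scales.

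The make-up of the ligand RNA also varied. By FPKM Pdgfa made up 92.2% and 55.0% of the ligand sum in adipose, 49.3% and 55.8% in muscle and 87.3% and 72.2% in pancreas, against 44.8% and 74.3% in MEFs. Pdgfc made up 1.64% and 12.1% in adipose, 36.1% and 22.3% in muscle and 7.76% and 15.4% in pancreas, against 49.6% and 23.2% in MEFs. Both Pdgfc and Pdgfa shares overlapped between muscle and MEFs. By RPKM the share of Pdgfa was 68.1% and 36.5% in adipose, 35.7% and 43.3% in muscle and 72.8% and 59.1% in pancreas, against 28.9% and 57.5% in MEFs. That of Pdgfc by RPKM was 11.5% and 20.8% in adipose, 46.4% and 31.4% in muscle and 16.3% and 23.0% in pancreas, against 64.2% and 38.5% in MEFs. The leading ligand of muscle library 1 was thus Pdgfa by FPKM and Pdgfc by RPKM. The summed ligand level was 32.6 and 18.6 FPKM in adipose, 17.5 and 15.5 FPKM in muscle and 26.1 and 18.9 FPKM in pancreas, against 79.5 and 104 FPKM in MEFs.

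Likeness to other genes was measured as the root mean square difference of centred log2 CPM over the 8 libraries, as a description. The tested gene most like Pdgfra was Sh2d4a (0.174), followed by Cnrip1 (0.185) and Slc43a1 (0.23). For Pdgfrb Pacs2 (0.12) and Thnsl2 (0.127) were nearest, and for Pdgfrl Boc (0.225), Arhgap24 (0.234) and Slc41a1 (0.268). The nearest to Pdgfa was Mgmt (0.231), to Pdgfc Rab39b (0.321) and to Pdgfd Serinc3 (0.131). Pdgfb had Tspan13 (0.336), Cd38 (0.45) and Flt1 (0.457) as its nearest genes. Among the members themselves the closest pair was Pdgfrb and Pdgfrl (0.7), then Pdgfra and Pdgfrb (0.782), each farther apart than any gene just named was from its member.

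Genes that process, bind or oppose PDGFs outside the cell were mostly higher in FAP+ cells. Of 12 listed, 11 were tested, with 8 higher and 2 lower in adipose, 7 higher and 1 lower in muscle, and 7 higher and 1 lower in pancreas. Over all genes 26.9%, 23.7% and 23.1% were called higher in these comparisons. The adipose counts were 7 and 2 without adipose library 1. The median log2 fold change of the list was 2.29, 2.20 and 2.48, beside the medians over all genes given above. Pcsk5 and Pcsk6, proprotein convertases of the family that cleaves growth factor precursors, were 67.3- and 33.0-fold higher in adipose, 41.8- and 55.5-fold in muscle, and 33.1- and 37.7-fold in pancreas. Their adipose folds were 81.5 and 29.0 without adipose library 1. Plau, the urokinase that can activate the D chain, exceeded MEFs 15.6-fold in adipose, 22.0-fold in muscle and 7.14-fold in pancreas. Its MEF levels of 0.900 and 3.67 CPM differed between libraries, and with 1 library left out its fold ran between 7.80 (without adipose library 2) and 39.5 (without MEF library 2) in adipose and between 13.4 (without MEF library 1) and 56.5 (without MEF library 2) in muscle. It was 23.1 without adipose library 1. Plat, the tissue plasminogen activator that can activate the C chain, had log2 fold changes of 2.98 in adipose, 2.09 in muscle and 2.48 in pancreas, each called. Lrp1, an endocytic receptor that modulates the beta receptor, was higher 8.43-fold in adipose (7.79-fold without adipose library 1), 6.53-fold in muscle and 6.48-fold in pancreas (1038 and 969 CPM, against 168 and 142 CPM in MEFs). The members lower than in MEFs were Thbs1 in all 3 tissues (log2 -1.55 in adipose, -3.46 in muscle and -2.31 in pancreas) and St14 in adipose (-2.83). In adipose the log2 without adipose library 1 was 3.20 for Plat, -1.69 for Thbs1 and -3.58 for St14, each called.

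Inside the cell, 24 receptor effectors and regulators split both ways. In adipose 7 were higher and 4 lower, in muscle 7 and 3, and in pancreas 6 and 4, with median log2 fold changes of 0.22, 0.12 and -0.13. The 11, 10 and 10 called of 24 lay near the shares over all genes, 50.1%, 43.8% and 42.5%, and are no result about the list. Leaving out adipose library 1 gave 7 and 4 in adipose again. Socs3, a feedback inhibitor of cytokine receptor signalling, was the highest by fold: 78.3-fold in adipose (2803 and 1936 CPM, against 34.7 and 25.8 CPM in MEFs), 43.2-fold in muscle and 36.3-fold in pancreas. Its adipose fold was 64.2 without adipose library 1. The related gene Socs1 was 13.4-, 19.5- and 7.15-fold higher. The adipose fold of Socs1 was 20.7 without adipose library 1 and 6.14 without adipose library 2, and its pancreas call was lost without MEF library 1 (adjusted p = 0.0536). The kinase gene Fyn was 4.09-fold higher in adipose, 5.37-fold in muscle and 4.09-fold in pancreas. In adipose that fold was 5.50 without adipose library 1 and 2.67 without adipose library 2, and the limma fits on FPKM did not call it (adjusted p of 0.236 to 0.354). Pik3r1, the regulatory subunit of PI 3-kinase that docks on PDGF receptors, had folds of 2.22 in adipose (3.08 without adipose library 1), 6.22 in muscle and 4.14 in pancreas. Yes1, a kinase of the Src family, was lower 2.78-fold in adipose (3.21-fold without adipose library 1), 3.14-fold in muscle and 5.23-fold in pancreas. The pancreas value of Yes1 was lost without pancreas library 2 (adjusted p = 0.0555). Ptpn2, a phosphatase, was lower in muscle than in adipose (log2 -1.54 ± 0.28, adjusted p = 0.0237) and lower in pancreas than in adipose (-1.75 ± 0.29, adjusted p = 0.012). Without adipose library 1 these were -1.32 (adjusted p = 0.019) and -1.52 (0.00752). The muscle difference in Ptpn2 was lost in 10 of 18 alternatives, among them the fit of these 2 groups alone (adjusted p = 0.141) and those without muscle library 1 (0.142) or 2 (0.21), pancreas library 1 (0.0745) or 2 (0.0734), or MEF library 1 (0.0578) or 2 (0.0606). The pancreas difference was lost in 6 of 18, among them the fit of these 2 groups alone (0.0839) and those without pancreas library 1 (0.138) or 2 (0.127).

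The receptors closest to the PDGF receptors in structure, those for stem cell factor, CSF1 and FLT3 ligand, were listed with their ligands. Of 7 listed 6 were tested, and 6 were higher in adipose, 3 in muscle and 3 in pancreas, with none lower, beside 26.9%, 23.7% and 23.1% of all genes called higher. Leaving out adipose library 1 gave 5 higher in adipose. Flt3l, encoding FLT3 ligand, was 32.2-fold higher in adipose, 17.6-fold in muscle and 17.2-fold in pancreas, and the adipose fold was 16.2 without adipose library 1. Il34, another ligand of the CSF1 receptor, was 12.4-, 19.4- and 29.1-fold higher, and its level in pancreas (92.7 and 108 CPM, against 43.2 and 42.0 CPM in adipose) was 2.36-fold higher (adjusted p = 0.0469). That last call was lost in 13 of 18 alternatives, with adjusted p up to 0.249, among them those without adipose library 1 (0.0614), pancreas library 1 (0.19) or 2 (0.249), muscle library 1 (0.0584) or 2 (0.0592) and MEF library 1 (0.0961) or 2 (0.0957). Against MEFs the adipose fold of Il34 was 12.2 without adipose library 1. Kitl, the ligand of the receptor Kit, was 3.60-fold higher in adipose (10.1 and 24.7 CPM, against 4.05 and 5.65 CPM in MEFs). Its fold was 5.09 without adipose library 1 and 2.06 without adipose library 2, and the call was lost without MEF library 1 (adjusted p = 0.0892). Csf1 had folds of 3.08 in adipose (2.77 without adipose library 1) and 2.34 in muscle. Its muscle call was lost without muscle library 1 (adjusted p = 0.0828) or 2 (0.0585) or MEF library 1 (0.0969). Leukocyte markers summed to at most 13.6 CPM in any library.

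VEGFs are the other branch of the PDGF/VEGF family. Of 8 genes tested, 5 were higher in adipose, 4 higher and 1 lower in muscle, and 4 higher and 2 lower in pancreas, beside 26.9%, 23.7% and 23.1% of all genes called higher. The adipose count was 5 as well without adipose library 1. Pgf, placental growth factor, was 10.6-fold higher in adipose, 29.4-fold in muscle (66.7 and 71.1 CPM, against 2.28 and 2.40 CPM in MEFs) and 9.05-fold in pancreas, with an adipose fold of 6.48 without adipose library 1. Kdr, a VEGF receptor of endothelial cells, was higher 34.8-fold in adipose, 6.72-fold in muscle and 5.34-fold in pancreas. The adipose fold of Kdr was 34.2 without adipose library 1, 23.6 without MEF library 1 and 62.7 without MEF library 2. Flt1, another such receptor, was 10.5-fold higher in adipose (9.37-fold without adipose library 1), was not called in muscle (2.74-fold, adjusted p = 0.054) and was 4.35-fold lower in pancreas (0.0221). Flt1 was lower in pancreas than in adipose (0.782 and 0.728 CPM, against 38.5 and 30.9 CPM, adjusted p = 0.00427), beside the endothelial marker levels given for Pdgfb. That call was lost without pancreas library 1 (adjusted p = 0.0741) or 2 (0.0688), and the log2 was -5.36 without adipose library 1 (0.0029). Vegfc, a lymphatic growth factor, exceeded MEFs 9.52-fold in adipose (9.38-fold without adipose library 1), 2.29-fold in muscle and 2.42-fold in pancreas. It was 3.94-fold lower in pancreas than in adipose (adjusted p = 0.00434) and 4.16-fold lower in muscle than in adipose (0.00592). Without adipose library 1 these log2 differences of Vegfc were -1.96 (adjusted p = 0.00189) and -2.04 (0.00272). The first was lost without pancreas library 1 (0.0719) or 2 (0.0699), and the second without muscle library 1 (0.0788) or 2 (0.0695) or when only these 2 groups were fitted (0.0672). The limma fits on FPKM called neither. Figf, listed today as Vegfd, had folds over MEFs of 8.49 in adipose (6.40 without adipose library 1), 2.46 in muscle and 3.19 in pancreas. Its muscle call was lost without muscle library 1 (adjusted p = 0.141) or MEF library 1 (0.104) or 2 (0.0877), and its pancreas call without MEF library 1 (0.0565). Between tissues, 5 VEGF genes were lower in pancreas than in adipose, where 5.73% of all genes were called lower. In muscle against adipose 3 were lower, beside 6.12% of all genes called in either direction. These counts were 4 and 2 without adipose library 1.

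**Figure D4:**
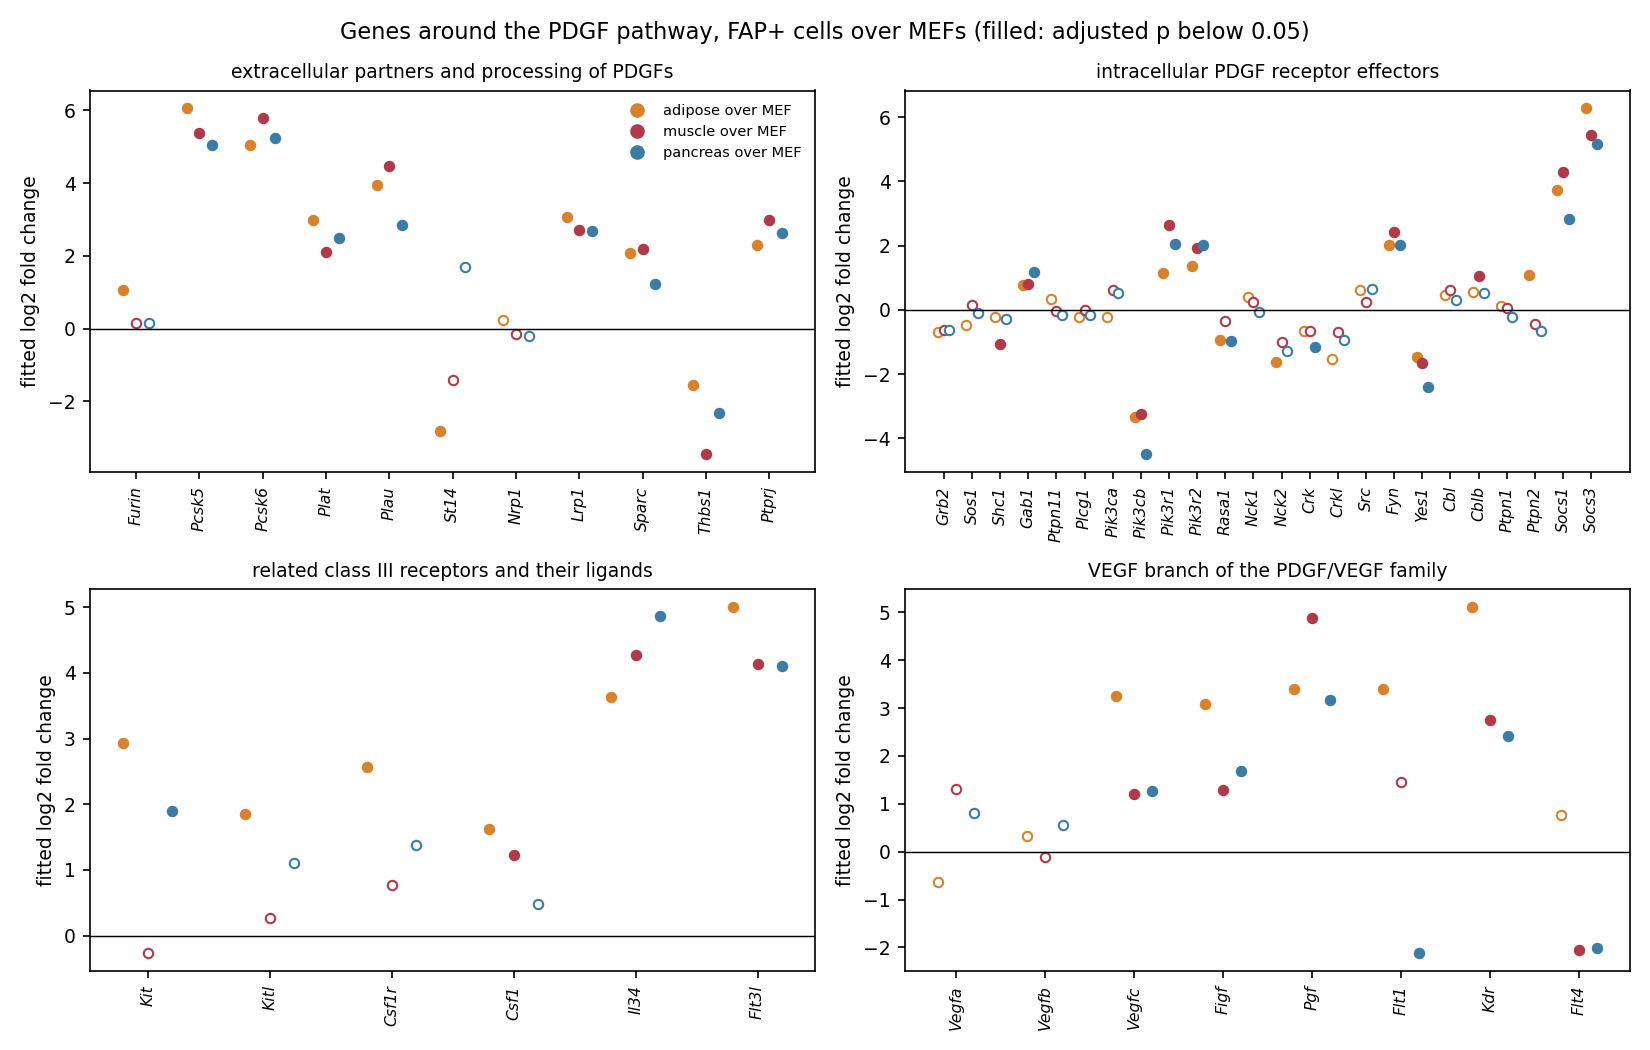
Fitted log2 fold change of each tested gene of the 4 lists, adipose, muscle and pancreas FAP+ cells over MEFs; filled points are called at an adjusted p below 0.05. Pcsk5, Pcsk6 and Socs3 stand above 5 in all 3 tissues, while most intracellular effectors lie within 2 of 0.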

How the data were processed

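RNA was amplified with MessageAmp and made into libraries with an Illumina mRNA kit, per the labels' protocols. Bowtie2, TopHat2, HTSeq, edgeR and build mm9 stand in the submitters' processing notes, without versions. The authors deposited bias-adjusted estimated counts of fragments per gene, matching FPKM values, and RPKM values. Each also holds columns, 6 in number, that were not used. Estimated counts were rounded and tested in edgeR 4.0.16 (quasi-likelihood, TMM, filterByExpr, no covariates, R 4.3.3) over all 8 libraries, with 4 residual degrees of freedom, and tested on simulated data. Whole reads, recovered from RPKM for 20965 genes within a tolerance of 0.001 (100% of values above 0), totalled 9497145 to 16807757 per library. Alternatives used limma 3.58.1 and DESeq2 1.42.0. Members, gene lists and tests were chosen with earlier results of these data known. Genes named were the 7 members, up to 3 called members of each list per comparison with MEFs by size of change, with 10 CPM or more in each library of the group with the higher level, and the 3 nearest genes, of which 1 is not reported here. St14, Plat, Thbs1, further tissues of named list genes and list results between tissues were chosen after their values were seen. Intervals and floors cover counting error only.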

Additional observations from a re-analysis of the deposited data

Results flagged for a closer look

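Pdgfb differed from MEFs in opposite directions in 2 tissues, higher in adipose and lower in pancreas. The difference between the tissues, pancreas over adipose, was itself called, at a log2 of -5.32 (edgeR quasi-likelihood test, adjusted p = 0.0104). Pdgfrl was called higher than in MEFs in adipose and not in pancreas, and its pancreas over adipose difference of -1.99 was called by the same test (adjusted p = 0.0149). Both calls were lost without either pancreas library and in the limma fits on FPKM.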

How the results depend on the processing

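Of the 15 member results that were called, 5 held under all 18 alternatives: Pdgfc in adipose and pancreas, Pdgfra in muscle and pancreas, and Pdgfrl in adipose, each against MEFs. Over these 15 results and 18 alternatives, 229 values of 270 stayed called, 41 were no longer called and 0 changed sign. Of 792 values for 44 results of list genes, 690 stayed called and 102 were no longer called. DESeq2 called 2016 genes and 2 members in muscle against adipose, 2405 genes in pancreas against adipose, and 1055 genes and 1 member in pancreas against muscle. Fitting only the groups compared gave 4588 genes in adipose against MEFs, 74 in muscle against adipose, 305 genes and 1 member in pancreas against adipose, and 1752 genes and 3 members in pancreas against muscle. Recovered reads gave 1933, 3235 and 864 genes in the same 3 comparisons between tissues (muscle against adipose, pancreas against adipose, pancreas against muscle), and 1 member in the last. With limma on log2(FPKM + 1), 2 members were called in adipose against MEFs, 451 genes in muscle against adipose, and 836 genes and 0 members in pancreas against adipose. The same on log2(FPKM + 0.1) gave 2 members, 363 genes, and 764 genes and 0 members, and the filter of 1 FPKM in 2 libraries gave 495 genes in muscle against adipose and 872 genes and 0 members in pancreas against adipose. The share of calls that were higher was 53.6% in adipose, 54.2% in muscle and 54.4% in pancreas against MEFs by edgeR, and 19.3%, 27.3% and 31.6% by limma on filtered FPKM, where the median gene lay at -0.93, -0.59 and -0.47. In pancreas against adipose it was 36.7% by edgeR, 47.1% with upper quartile scaling and 62.1% with limma on log2(FPKM + 1). In muscle against adipose it was 38.2% by edgeR and 55.0% with that limma fit, and in pancreas against muscle 41.8% and 54.7%.

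Leaving out each library in turn gave 4321 to 9491 genes and 4 to 6 members in adipose against MEFs, 3382 to 8987 genes and 1 to 5 members in muscle against MEFs, and 3506 to 8830 genes and 3 to 5 members in pancreas against MEFs. Between tissues it gave 51 to 5410 genes and 0 to 2 members in muscle against adipose, 8 to 5077 genes and 0 to 3 members in pancreas against adipose, and 58 to 1205 genes and 0 to 1 member in pancreas against muscle. A group left with 1 library was assumed to vary like the other groups.

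The log2 differences that changed sign, 38 in all, belonged to members that were not called. With a library left out, Pdgfa ran between -1.81 and 0.66 in adipose against MEFs and between -1.81 and 0.65 in pancreas against adipose. Pdgfd ran between -0.057 and 0.95 in adipose, -0.038 and 0.58 in muscle and -0.65 and 0.15 in pancreas against MEFs, and between -0.72 and 0.28 in muscle against adipose. Pdgfb ran between -0.73 and 1.46 in muscle against MEFs. Pdgfra ran between -0.0060 and 0.80 in muscle against adipose and between -0.26 and 0.54 in pancreas against adipose, where Pdgfc ran between -0.074 and 1.09 and Pdgfrb between -0.40 and 0.17. Pdgfrb in pancreas against adipose was 0.0085 with upper quartile scaling, 0.53 with recovered reads, 0.52 on log2(FPKM + 1) with and without the filter, and 0.54 on log2(FPKM + 0.1). In muscle against adipose Pdgfrb was 0.34 with recovered reads, 0.075 on log2(FPKM + 1) with and without the filter and 0.077 on log2(FPKM + 0.1). Pdgfd on log2(FPKM + 1), with and without the filter, was -0.38 in adipose and -0.26 in muscle against MEFs and 0.11 in muscle against adipose, and on log2(FPKM + 0.1) -0.60, -0.35 and 0.25. Pdgfa in pancreas against adipose was 0.0012 on log2(FPKM + 1), with and without the filter, and 0.0093 on log2(FPKM + 0.1), and in adipose against MEFs it was 0.018 when only these groups were fitted. Pdgfb in muscle against MEFs was -0.13 on log2(FPKM + 0.1), and Pdgfra in pancreas against adipose was -0.10 with recovered reads. The cause of these shifts was not tested.

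The correlation of the deviations of same-numbered libraries from their group means ran between -0.156 and 0.347 over the 6 pairs of groups, so the number was not treated as pairing. With the replicate block 7202, 6428 and 6214 genes were called against MEFs in adipose, muscle and pancreas, beside 7445, 6500 and 6310 without it, and 5, 4 and 4 members in both. With 2 libraries a group, low levels such as that of Pdgfb in pancreas (3 fragments a library) limit what can be seen.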
